A study of Sus scrofa with 9 samples.

Results

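The 8 genes described here, SCAP, INSIG1, INSIG2, SREBF1, SREBF2, STARD4, VLDLR and MYLIP, encode proteins that sense sterols, switch sterol-responsive transcription or control receptors for lipoproteins. They were taken by name from a table of 21357 genes measured by RNA-seq in abdominal aortas of male pigs of the Tibetan minipig strain. The table gives 6 of them by symbol, while INSIG2 and MYLIP stand there under their Ensembl gene IDs only and were matched to their symbols by those IDs. Each symbol had a single row, so no choice between rows was needed. The libraries fall into 3 groups of 3. The control group (NC) received a regular diet for 24 weeks. The H8 group received a high-fat diet for 8 weeks and is labelled hypercholesterolemia. The H24 group received it for 24 weeks and is labelled atherosclerosis, and the methods of the study describe this diet as basal feed with shortening oil, cholesterol and egg yolk powder. The labels name no transgene or deletion in any group, and the pigs of NC and H24 were 3 to 4 months old when purchased. The age of the H8 pigs was not given in the sources used here, so in any comparison with H8 the time on the diet and the age of the animals cannot be told apart.

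Cells hold cholesterol in their membranes within narrow limits. When sterols in the endoplasmic reticulum are low, SCAP carries the SREBP precursors encoded by SREBF1 and SREBF2 to the Golgi, where proteases release the transcription factors that switch on genes of cholesterol synthesis and lipoprotein uptake. When sterols are high, INSIG1 and INSIG2 hold SCAP and its cargo back. Oxidised sterols also activate the nuclear receptors LXR, which induce SREBF1, sterol efflux genes and MYLIP, the ubiquitin ligase (also called IDOL) that sends VLDLR and related receptors to degradation. STARD4 shuttles cholesterol between membranes inside the cell. In an artery these genes act in smooth muscle cells, endothelial cells and the macrophages that fill with lipid in a plaque. Much of this control acts on protein location and stability, which mRNA levels do not measure.

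Total estimated counts ran from 44094263 to 75787978 per library, and the lowest total was that of H24 replicate 2. A floor of 3 counts corresponded to 0.0396 to 0.0680 CPM (counts scaled to library size). All 8 smooth muscle markers were detected in every library, as the label of the tissue implies. H24 replicate 3 stood apart from the other libraries: its summed level of the 8 smooth muscle markers was 1785 FPKM (reads scaled to transcript length and library size), against 8448 to 14510 in the other 8 libraries. Its summed level of 10 macrophage markers was 2458 FPKM, against 30.8 to 43.4 in NC, 41.2 to 228 in H8 and 236 to 384 in the other H24 libraries, and none of these markers was at 0 in any library. H8 replicate 2 also stood apart, with a score of -90.5 on the second principal component of all genes against -28.3 to 35.2 in the other libraries, and its macrophage sum of 41.2 FPKM was the lowest of that group. The 7 adipocyte markers summed to 109 to 184 FPKM in NC, 63.1 to 145 in H8 and 69.9 to 117 in H24, and a single marker was at 0 in a single library. Of the 6 adipocyte markers tested in H8 against NC, 4 were lower at an unadjusted p under 0.05 in edgeR and none higher, with a median log2 fold change of -2.03, and ADIPOQ also passed adjustment (adjusted p = 0.0206). ADIPOQ, the fat cell hormone adiponectin, had 4.44, 14.6 and 6.83 FPKM in NC, 0.0954, 0.106 and 0.0789 in H8 and 7.24, 0.0705 and 0.416 in H24. Other adipocyte markers differed from it in part. FABP4 had 47.9, 139 and 49.6 FPKM in H8 replicates 1, 2 and 3, against 75.1 to 122 in NC. All 6 log2 fold changes of these markers in H8 against NC were below 0. In H24 against NC, LEP was higher (log2 fold change 2.53) and LIPE lower (-1.18) at an unadjusted p under 0.05 in edgeR. There 5 of the 7 log2 fold changes were below 0 and 2 above. Endothelial markers summed to 69.7 to 171, 55.1 to 85.3 and 81.0 to 132 FPKM in NC, H8 and H24. T and B cell markers summed to 5.36 to 6.07, 1.94 to 4.41 and 12.9 to 26.5 FPKM, with up to 3 of the 8 at 0 in a library. CD79A alone had 4.44 to 5.46 FPKM in NC and 1.25 to 3.59 in H8, and CD3E had 15.8 FPKM in H24 replicate 2. At an unadjusted p under 0.05 in edgeR, CD79A was lower and CD2 higher in H8 than in NC, of 4 tested. In H24 against NC 4 of 6 tested were higher and none lower. Some of these, such as CD3D with at most 0.0679 FPKM in NC, reached the minimum mean of 0.1 FPKM for testing through H24 only. Fibroblast markers summed to 2396 to 3100, 3698 to 5788 and 2485 to 3152 FPKM. Of these 6, 2 were higher and none lower at an unadjusted p under 0.05 in edgeR in H8 against NC. The same counts held in H24 against NC, where the 2 were LUM (log2 fold change 2.69) and PDGFRA (1.49). Of all genes tested, 8.89% were higher and 5.92% lower at that threshold in H8 against NC. In H24 against NC the shares were 11% and 2.84%. The 4 skeletal muscle markers in the table summed to 0.436 to 1.59 FPKM in all libraries, with 1 or 2 at 0 in each. In tissue of this kind a smaller number of cells that express a gene and less RNA of it per cell cannot be told apart. The part that these differences in cell markers play in the results was not tested.

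Levels per length differed widely among the 8 genes. VLDLR had the highest mean over the 9 libraries, 44.6 FPKM, above 95.8% of the genes in the table. MYLIP followed with 31.0 FPKM. SCAP, at 13.2 FPKM, and INSIG1, at 12.8 FPKM, lay close together, and SREBF2 and SREBF1 had means of 8.998 and 7.72 FPKM. INSIG2 had a mean of 2.39 FPKM. STARD4 was barely detected, at 0.102 FPKM. The highest library exceeded the lowest 14.0-fold for STARD4, 8.82-fold for INSIG1 and 3.51-fold for SREBF1, while for SCAP the ratio was 1.72. INSIG1 and STARD4 were therefore the most variable of the genes and SCAP the steadiest.

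**Figure D1:**
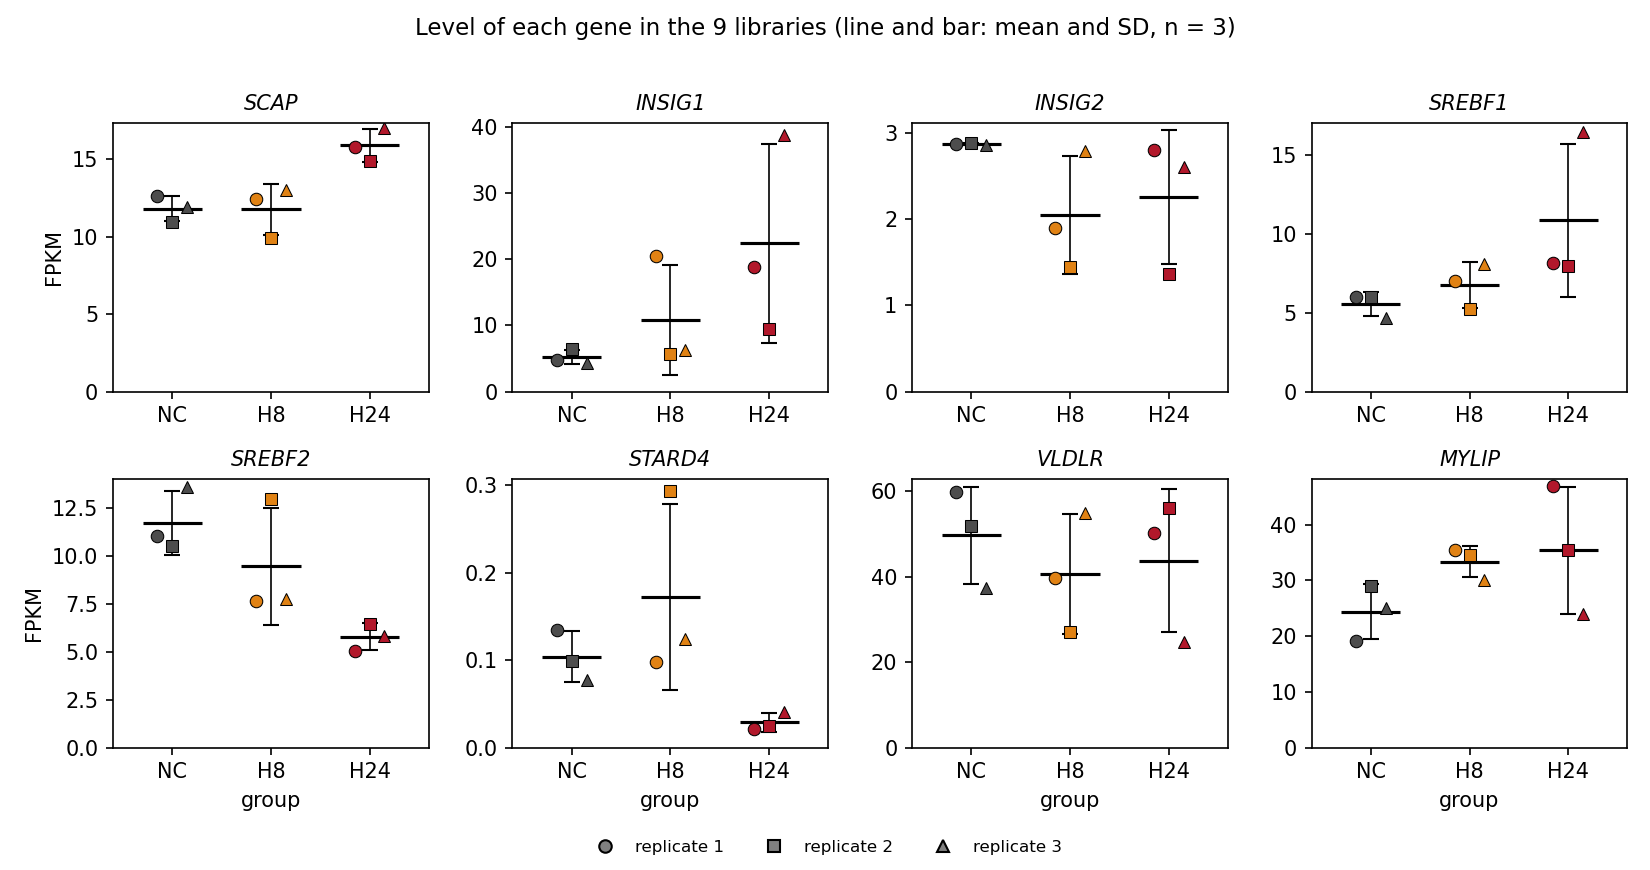
FPKM (vertical axis, linear, from 0) of each of the 8 genes in the 9 libraries, by group, with the group mean as a line, the SD as a bar and a symbol for each replicate. The 3 H24 libraries lie above the 3 NC libraries for SCAP, INSIG1 and SREBF1 and below them for SREBF2, INSIG2 and STARD4, while VLDLR and MYLIP overlap.

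The comparison of H24 with NC asks what 24 weeks of the diet do to the vessel wall. INSIG1 was 4.203-fold higher and SREBF1 1.92-fold higher in H24, and SREBF2 was 2.05-fold lower. These 3 genes had an unadjusted p under 0.05 in the edgeR quasi-likelihood test, 2 of them higher and 1 lower of the 7 genes that could be tested. Of all 14828 genes tested, 11% were higher and 2.84% lower at that threshold. The call of SREBF1 at an unadjusted p under 0.05 held in 12 of 17 alternative settings in edgeR, DESeq2 and limma, and leaving out any of the 3 NC libraries left 1 gene higher, INSIG1. Without H24 replicate 3, SREBF1 had an unadjusted p of 0.05002 in edgeR, just past the threshold. None of the 7 passed the threshold of 0.05 after adjustment over all genes, nor did any other gene (0%). The adjusted p-values of the 7 ran from 0.132 to 0.843. The 3 H24 libraries lay above the 3 NC libraries for SCAP, INSIG1 and SREBF1, and below them for INSIG2, SREBF2 and STARD4. Of all genes tested, 12.8% lay wholly above and 7.8% wholly below. DESeq2, which called 6.77% of the genes in this comparison, gave INSIG1 an adjusted p of 0.00240 and SREBF2 one of 0.000898, and called no other gene of the 8.

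The comparison of H8 with NC asks the same of the earlier time. MYLIP was 1.51-fold higher in H8 and INSIG1 was 2.24-fold higher, both at an unadjusted p under 0.05 in the edgeR test, and none of the 8 was lower at that threshold. Among all 14336 genes tested, 8.89% were higher and 5.92% lower. The call at an unadjusted p held in 12 of 17 alternative settings for MYLIP and in 6 of 17 for INSIG1. None of the 8 was higher at that threshold in edgeR without H8 replicate 1, NC replicate 1 or NC replicate 3. The same held with all 9 libraries kept in 1 edgeR fit. No gene of the 8 passed adjustment, while 4 of all genes did (0.0279%). In FPKM, only MYLIP lay wholly above NC and only INSIG2 wholly below, against 6.91% and 15.9% of all genes tested. In CPM scaled by TMM, INSIG2 of H8 and NC overlapped. DESeq2 called none of the 8 here and 5.68% of all genes.

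Between H8 and H24, SREBF2 and STARD4 were lower in H24 at an unadjusted p under 0.05 in edgeR, by 1.88-fold and 6.85-fold, and no gene of the 8 was higher at that threshold. STARD4 reached the minimum mean of 0.1 FPKM for testing only through H8, with a mean of 0.172 FPKM there against 0.0290 in H24. The background was 8.68% higher and 5.04% lower of 14788 genes. The call at an unadjusted p held in 12 of 17 alternative settings for SREBF2 and in 11 of 14 for STARD4. No gene of the 8 was lower at that threshold in edgeR without H8 replicate 2, or in limma with any of 3 pseudocounts. A single gene was lower in edgeR without H24 replicate 1 or H8 replicate 3. Without H8 replicate 2 or H8 replicate 3, and with a minimum mean of 1 FPKM, STARD4 was under the minimum and was not tested. No gene of the 8 passed adjustment, and 2 of all genes did (0.0135%). SCAP lay wholly above H8 in H24, and SREBF2 and STARD4 wholly below, against 15.5% and 6.31% of all genes. DESeq2 called 4.83% of all genes here and, of the 8, only STARD4, with an adjusted p of 0.0210.

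Over all 9 libraries, a test for any difference among the 3 groups gave an unadjusted p under 0.05 for STARD4, SREBF2, INSIG1 and SREBF1, and for 17.9% of all genes. Their adjusted p-values in edgeR were 0.137, 0.154, 0.189 and 0.229, and 19 of 14721 genes passed adjustment (0.129%). DESeq2 called STARD4, INSIG1 and SREBF2 in this test, with adjusted p-values of 0.0106, 0.0324 and 0.0345, and 11.1% of all genes. In both tools STARD4 was just above the minimum mean of 0.1 FPKM, at 0.102 FPKM over the 9 libraries, with its highest group mean in H8. With both times on the diet averaged and set against NC, INSIG1, SREBF1 and MYLIP were higher and SREBF2 was lower at an unadjusted p under 0.05, against 8.21% and 3.21% of all genes, and no gene of the table passed adjustment in edgeR (0%). These calls at an unadjusted p held in 14 of 15 alternative settings for INSIG1, 9 of 15 for SREBF2, 8 of 15 for SREBF1 and 7 of 15 for MYLIP. Leaving out 1 library at a time gave 0 to 3 genes higher, with 0 without NC replicate 3 and 1 without NC replicate 1 or H8 replicate 1. It gave 1 gene lower without H8 replicate 2, H24 replicate 2 or H24 replicate 3, and 0 without any of the other 6. There DESeq2 called INSIG1 alone of the 8, with an adjusted p of 0.0373, and 4.5% of all genes. These 2 tests and the comparisons with NC share their control libraries.

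**Figure D2:**
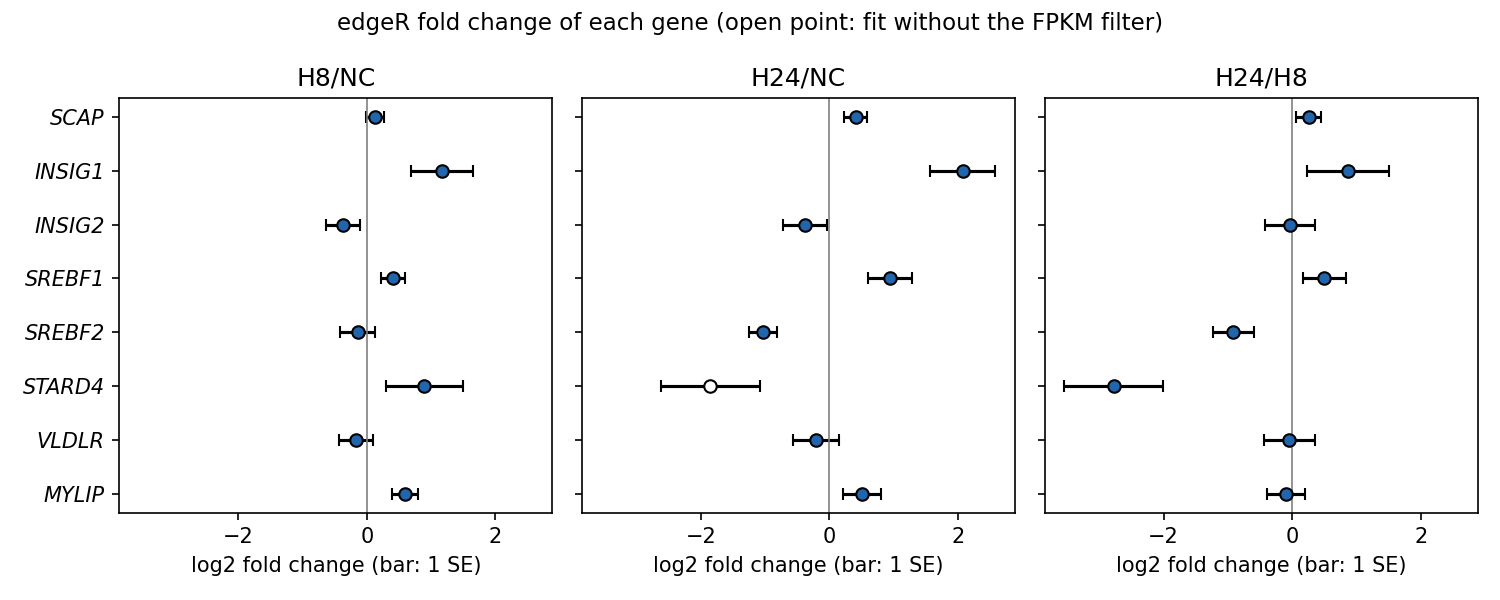
Log2 fold change (horizontal axis) of each of the 8 genes from the edgeR fit of H8 against NC, H24 against NC and H24 against H8, with 1 SE as the bar. The open point for STARD4 in H24 against NC comes from a fit of 18407 genes without the minimum level, because its mean there was under 0.1 FPKM.

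SCAP, the escort of the SREBP precursors, is on chr13:30253266-30320625 of Sscrofa11.1, minus strand (ENSSSCG00000026281). Its levels in NC were 12.6, 10.9 and 11.9 FPKM. They were 12.4, 9.89 and 13.0 FPKM in H8 and 15.8, 14.9 and 17.0 FPKM in H24. The H24 libraries were above all 6 others, while H8 and NC overlapped fully. The log2 fold change of H24 against NC was 0.41 ± 0.18 (SE), with an adjusted p of 0.389 in edgeR. For H8 against NC it was 0.13 ± 0.13, and its 95% interval ran from -0.19 to 0.44.

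INSIG1, the retention protein that is itself a target of the SREBPs, is on chr18:2885494-2898914, minus strand (ENSSSCG00000016420). NC libraries had 4.81, 6.44 and 4.40 FPKM. H8 libraries had 20.4, 5.64 and 6.35 FPKM. H24 libraries had 18.8, 9.52 and 38.8 FPKM. All 3 H24 libraries were above NC, but within H8 only replicate 1 was high, and the other 2 were at the NC level. Against NC, H24 had a log2 fold change of 2.07 ± 0.51 (SE), with an unadjusted p of 0.00458 and an adjusted p of 0.151 in edgeR. Without H24 replicate 3 it was 1.40 (adjusted p = 0.0939, edgeR). For H8 against NC it was 1.16 ± 0.48, with an adjusted p of 0.325 in edgeR, and without H8 replicate 1 it was 0.34. H24 against H8 gave 0.87 ± 0.64, with an adjusted p of 0.554 in edgeR, and 1.68 without H8 replicate 1. The 3 libraries with the most INSIG1, H24 replicate 3, H8 replicate 1 and H24 replicate 1, had macrophage marker sums of 2458, 228 and 384 FPKM, which are 3 of the 4 highest. The other of these 4, H24 replicate 2, had a macrophage sum of 236 FPKM and the fourth highest INSIG1 level. The share of the INSIG1 difference that goes with these markers was not tested.

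INSIG2, which shares the retention role and is not known as an SREBP target, is on chr15:23676641-23699590, plus strand (ENSSSCG00000036229). Its 3 NC libraries were nearly alike, with 2.873, 2.876 and 2.855 FPKM. H8 libraries had 1.90, 1.45 and 2.79 FPKM. H24 libraries had 2.80, 1.36 and 2.601 FPKM. In FPKM each library on the diet was below each NC library, although H8 replicate 3 and H24 replicate 1 were lower by only a few percent. In TMM-scaled CPM, H8 replicate 3 had 8.96 against 8.83, 9.25 and 8.82 in NC, so H8 and NC overlapped, while the H24 libraries, with 8.37, 4.34 and 8.005, stayed below NC. The log2 fold change was -0.38 ± 0.34 (SE) for H24 against NC and -0.37 ± 0.27 for H8 against NC, with adjusted p-values of 0.672 and 0.557 in edgeR. Their 95% intervals, -1.18 to 0.43 and -0.99 to 0.26, take in no change, and the first also takes in a halving. RefSeq lists a second locus under the symbol INSIG2 on another chromosome, and reads that the 2 loci may share cannot be told apart.

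SREBF1, which encodes the SREBP proteins best known for fatty acid synthesis, is on chr12:60733977-60752502, plus strand (ENSSSCG00000033626). NC libraries had 6.03, 5.97 and 4.68 FPKM. H8 libraries had 7.01, 5.20 and 8.08 FPKM. H24 libraries had 8.12, 7.96 and 16.5 FPKM. H24 lay above NC throughout, and within H24 replicate 3 stood well above the other 2 libraries. H24 differed from NC by a log2 fold change of 0.94 ± 0.34 (SE), with an unadjusted p of 0.0272 and an adjusted p of 0.295 in edgeR, and without H24 replicate 3 it was 0.51. H8 against NC gave 0.41 ± 0.19, with an adjusted p of 0.364 in edgeR. SREBF1 overlaps RAI1, a gene on the opposite strand with 3.37 to 5.005 FPKM. Whether the counting used strand was not given in the sources used here, so reads from shared exons cannot be told apart.

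SREBF2, which encodes the SREBP best known for cholesterol synthesis, is on chr5:6716139-6784640, minus strand (ENSSSCG00000026092). NC libraries had 11.07, 10.51 and 13.6 FPKM. H8 libraries had 7.65, 13.0 and 7.76 FPKM. H24 libraries had 5.05, 6.47 and 5.85 FPKM. H24 was below all other libraries, and H8 was split, with replicate 2 inside the NC range and the other 2 libraries between NC and H24. H24 against NC gave a log2 fold change of -1.04 ± 0.22 (SE), with an unadjusted p of 0.00203 and an adjusted p of 0.132 in edgeR. Without H24 replicate 3 it was -1.04 (adjusted p = 0.0936, edgeR). Beside these SREBF2 levels, H24 replicates 1, 2 and 3 had smooth muscle marker sums of 8448, 12302 and 1785 FPKM, against 12163 to 14510 FPKM in NC. The part of these markers in the SREBF2 difference was not tested. H8 against NC gave -0.15 ± 0.27, with an adjusted p of 0.842 in edgeR. Without H8 replicate 2 that value was -0.54, and without H8 replicate 3 it was 0.01. H24 against H8 gave -0.91 ± 0.32 (adjusted p = 0.341, edgeR), and -0.53 without H8 replicate 2.

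SREBF1 and SREBF2 each host a microRNA gene in an intron, MIR33B and MIR33A. The libraries were made from poly(A) RNA, and these rows held at most 2 and 6 counts in a library, so their levels could not be described.

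STARD4, an SREBP target that carries cholesterol between membranes, is on chr2:116234587-116257041, minus strand (ENSSSCG00000031518). Its estimated counts were 64, 54 and 36 in NC, which correspond to 0.135, 0.0992 and 0.0775 FPKM. H8 libraries had 48, 142 and 67 counts, or 0.0976, 0.294 and 0.124 FPKM. H24 libraries had 10, 8 and 18 counts, or 0.0209, 0.0249 and 0.0412 FPKM. All H24 values were below all others, and the highest value was that of H8 replicate 2. H24 against H8 gave a log2 fold change of -2.78 ± 0.77 (SE), with an unadjusted p of 0.00844 and an adjusted p of 0.336 in edgeR. The gene reached the minimum mean of 0.1 FPKM in that comparison only through H8. In H24 against NC the gene was under the minimum mean of 0.1 FPKM. A fit without that minimum gave -1.85 ± 0.77, with an unadjusted p of 0.0428 and an adjusted p of 0.395 in edgeR. H8 against NC gave 0.90 ± 0.60 (adjusted p = 0.528, edgeR), and 0.15 without H8 replicate 2.

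VLDLR, the receptor for triglyceride-rich lipoproteins and reelin, is on chr1:219175738-219210338, minus strand (ENSSSCG00000005229). NC libraries had 59.8, 51.8 and 37.4 FPKM. H8 libraries had 39.7, 27.0 and 55.0 FPKM. H24 libraries had 50.2, 56.1 and 24.7 FPKM. The 3 groups overlapped, and the lowest levels were those of H24 replicate 3 and H8 replicate 2, the libraries that stand apart. The log2 fold change was -0.21 ± 0.36 (SE) for H24 against NC and -0.17 ± 0.26 for H8 against NC, with adjusted p-values of 0.843 and 0.798 in edgeR. The 95% interval for H24 against NC ran from -1.06 to 0.65, and without H24 replicate 3 the value was 0.08.

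MYLIP, the ligase that marks VLDLR and related receptors for degradation, is on chr7:12117240-12137926, plus strand (ENSSSCG00000001063). NC libraries had 19.2, 28.9 and 25.0 FPKM. H8 libraries had 35.4, 34.5 and 30.2 FPKM, all above NC. H24 libraries had 46.8, 35.4 and 24.0 FPKM, with replicate 3 inside the NC range. The log2 fold change of H8 against NC was 0.59 ± 0.20 (SE), with an unadjusted p of 0.0220 and an adjusted p of 0.268 in edgeR. For H24 against NC it was 0.50 ± 0.30 (adjusted p = 0.515, edgeR), and 0.72 without H24 replicate 3 (adjusted p = 0.314, edgeR). H24 against H8 gave -0.10 ± 0.30, with a 95% interval from -0.80 to 0.60.

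Ratios of a pair of these genes within a library do not depend on how libraries are scaled against each other. The mean log2 ratio of INSIG1 to INSIG2 was 0.84 ± 0.28 (SD, n = 3) in NC, 2.19 ± 1.14 in H8 and 3.15 ± 0.65 in H24. Each library on the diet, in H8 and in H24, was above each NC library, and the ratio was 4.94-fold higher in H24 than in NC. For H8 the gap was narrow, with a ratio of 2.28 in H8 replicate 3 against 2.24 in NC replicate 2. The mean log2 ratio of SREBF1 to SREBF2 was -1.08 ± 0.40 in NC, -0.46 ± 0.75 in H8 and 0.83 ± 0.61 in H24. SREBF2 exceeded SREBF1 in all 3 NC libraries and SREBF1 exceeded SREBF2 in all 3 H24 libraries, a 3.74-fold shift, while H8 lay between, with replicate 2 inside the NC range. The ratio of INSIG1 to SCAP was 2.76-fold higher in H24 than in NC. The log2 ratio of STARD4 to SCAP was lower in H24 than in NC by a difference of -2.29, and than in H8 by -2.90. The log2 ratio of VLDLR to MYLIP was 1.02 ± 0.55 in NC, 0.23 ± 0.61 in H8 and 0.27 ± 0.35 in H24, with overlap of all groups. An exact 2-sided permutation test of 3 against 3 libraries cannot go below p = 0.1, and 7 of the 15 differences between groups reached it. After adjustment over the 15, the smallest p of the exact tests was 0.214.

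**Figure D3:**
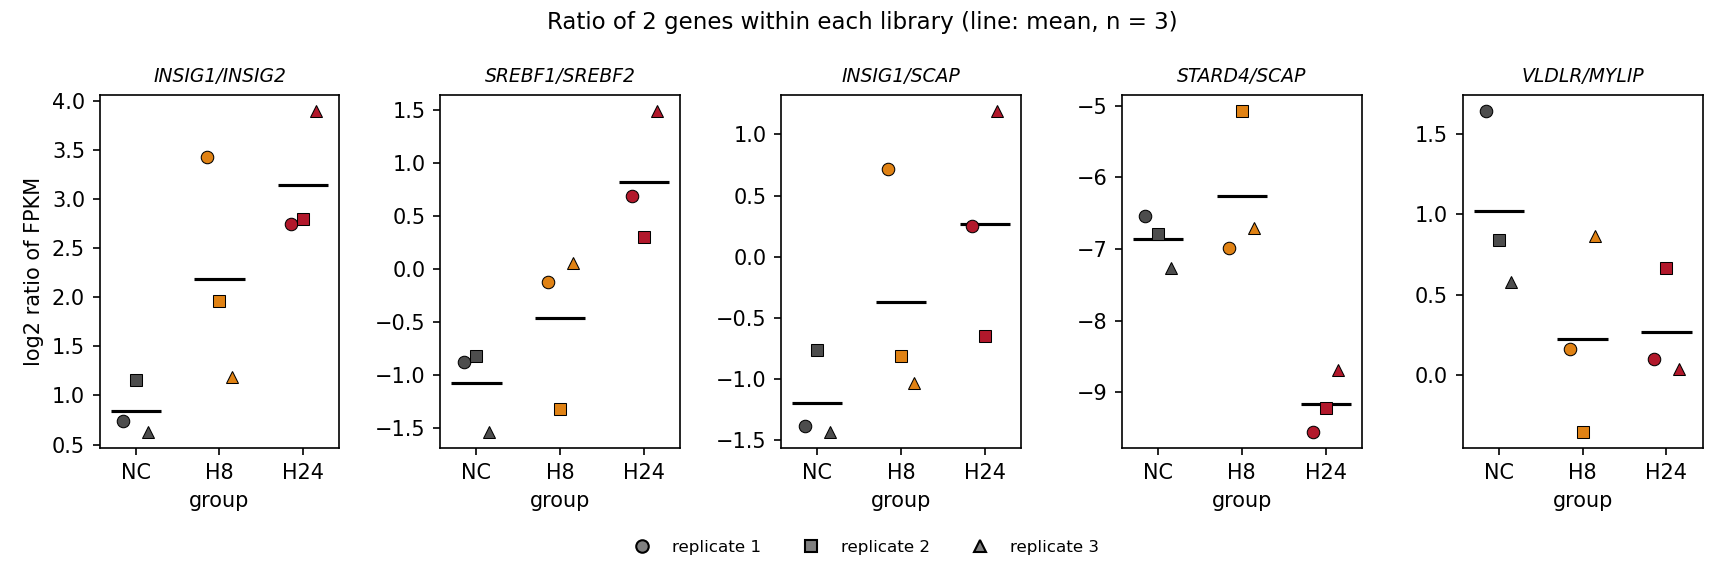
Log2 ratio of FPKM within each library (vertical axes, each on its own range) for 5 pairs of genes, with the group mean as a line and a symbol for each replicate. The 3 H24 libraries lie above the 3 NC libraries for INSIG1/INSIG2, SREBF1/SREBF2 and INSIG1/SCAP and below them for STARD4/SCAP.

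The genes whose centred log2 levels ran closest to those of the 3 most variable members were found among 9701 genes with a mean of at least 1 FPKM, over the 9 libraries. For INSIG1 they were TLR2, PIK3CG and CRYBG1, with root mean square differences of 0.20, 0.32 and 0.36 on the log2 scale. For SREBF1 they were PRKCD, CSK and STARD3, at 0.11, 0.14 and 0.16. For STARD4, whose values lay near the 0.1 FPKM added before taking logarithms, they were MBOAT2, ING2 and PRXL2B, at 0.22, 0.23 and 0.23.

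The other genes of the pathway were followed as lists that leave out the 8 genes above, and no gene of these pathway lists passed adjustment in edgeR in any of the 3 comparisons. DESeq2 called some, and their numbers are given with each list. Counts of list genes below are at an unadjusted p under 0.05 in edgeR. Of all genes tested, 11% were higher and 2.84% lower at that threshold in H24 against NC. The shares were 8.89% and 5.92% in H8 against NC, and 8.68% and 5.04% in H24 against H8. DESeq2 called 6.77%, 5.68% and 4.83% of all genes in these 3 comparisons, in this order. The median log2 fold change of all genes tested was 0.01 for H24 and for H8 against NC and 0.04 for H24 against H8. Of 17 tested genes of SREBP activation and INSIG turnover, 1 was lower and none higher in H24 than in NC, with a median of -0.25. That gene was UBE2G2, a ubiquitin-conjugating enzyme of the endoplasmic reticulum that takes part in the breakdown of sterol-bound HMG-CoA reductase, at -0.60 ± 0.22 (SE). PAQR3, a Golgi protein that anchors SCAP, had -0.90 ± 0.43, and MBTPS1, the site-1 protease that cleaves SREBPs, had -0.37 ± 0.21. In H8 against NC none of the 17 passed in either direction, with a median of -0.09, and in H24 against H8 none did, with a median of -0.32. DESeq2 called none of the 17 in any of the 3 comparisons.

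Of 16 tested genes of the LDL receptor family and lipoprotein uptake, 3 were higher and 2 lower in H24 than in NC, with a median of 0.19. DAB2, a clathrin adaptor for receptors of this family, had a log2 fold change of 2.04 ± 0.48 (SE), and RELN, the VLDLR ligand reelin, had -2.09 ± 0.68. Their adjusted p-values in edgeR were 0.139 and 0.257. In H8 against NC 2 genes were higher and 3 lower, with a median of 0.08, and in H24 against H8 1 was higher and none lower, with a median of 0.26. After adjustment DESeq2 called 1 gene of the list as higher and 2 as lower in H24 against NC, only RELN, as lower, in H8 against NC, and none in H24 against H8.

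Among 6 tested genes of receptor ubiquitination other than MYLIP, none passed in H24 against NC (median -0.12) or in H24 against H8 (median -0.25). The median was 0.07 in H8 against NC, where 1 was lower and none higher. That gene, also the only one of the 6 that DESeq2 called in any of the 3 comparisons, was USP2, a deubiquitinase that opposes MYLIP, at -0.97 ± 0.24 (SE), and in H24 against NC it had -0.66. UBE2D1 and UBE2D2, conjugating enzymes of the family that MYLIP uses, had -0.57 and -0.22 in H24 against NC.

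Of the 19 tested enzymes of cholesterol synthesis, the main targets of SREBF2, 8 were lower and none higher in H24 than in NC, with a median of -0.57 and 16 of the 19 below 0. SQLE, which makes squalene epoxide, had -2.96 ± 0.50 (SE), and CYP51A1, the lanosterol demethylase, had -1.83 ± 0.25. Their adjusted p-values in edgeR were 0.132 and 0.129. DESeq2 called 6 enzymes after adjustment, all lower. Of the 19, 5 were lower and none higher in H8 than in NC, with a median of -0.14, and in H24 against H8 7 were lower and none higher, with a median of -0.44. There DESeq2 called 2 and 3 enzymes, again all lower. The median log2 difference of the enzymes from the NC mean was -0.53, -0.72 and -0.49 in H24 replicates 1, 2 and 3. In H8 replicates 1, 2 and 3 it was -0.42, -0.17 and -0.27. SREBF2, in the same order, was at -1.21, -0.85 and -0.99 in H24 and at -0.61, 0.16 and -0.59 in H8. Whether the enzymes go with SREBF2 across libraries was not tested.

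Of the 10 tested LXRs, RXRs and LXR targets, 7 were higher and none lower in H24 than in NC, with a median of 3.32. ABCA1 and ABCG1, the sterol efflux transporters, had 4.08 ± 0.55 (SE) and 3.77 ± 0.70, and APOE, an apolipoprotein that macrophages also secrete, had 5.54 ± 1.04. Their adjusted p-values in edgeR were 0.129, 0.132 and 0.132. Against NC, H8 had 5 higher and 1 lower, with a median of 1.03, and in H24 against H8 3 were higher and none lower, with a median of 1.64. After adjustment DESeq2 called 6, 5 and 2 genes of this list in H24 against NC, H8 against NC and H24 against H8, all higher. The median of this list in the H24 libraries was 2.14, 1.68 and 4.46 above the NC mean on the log2 scale. Both SREBF1 and MYLIP are LXR targets. On the log2 scale, SREBF1 was 0.56, 0.53 and 1.58 above the NC mean in H24 replicates 1, 2 and 3. MYLIP was 0.96 and 0.56 above it in replicates 1 and 2 and at the NC mean in replicate 3. Replicate 3 is the library that stands apart in its cell markers. The part of LXR in these levels was not tested.

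**Figure D4:**
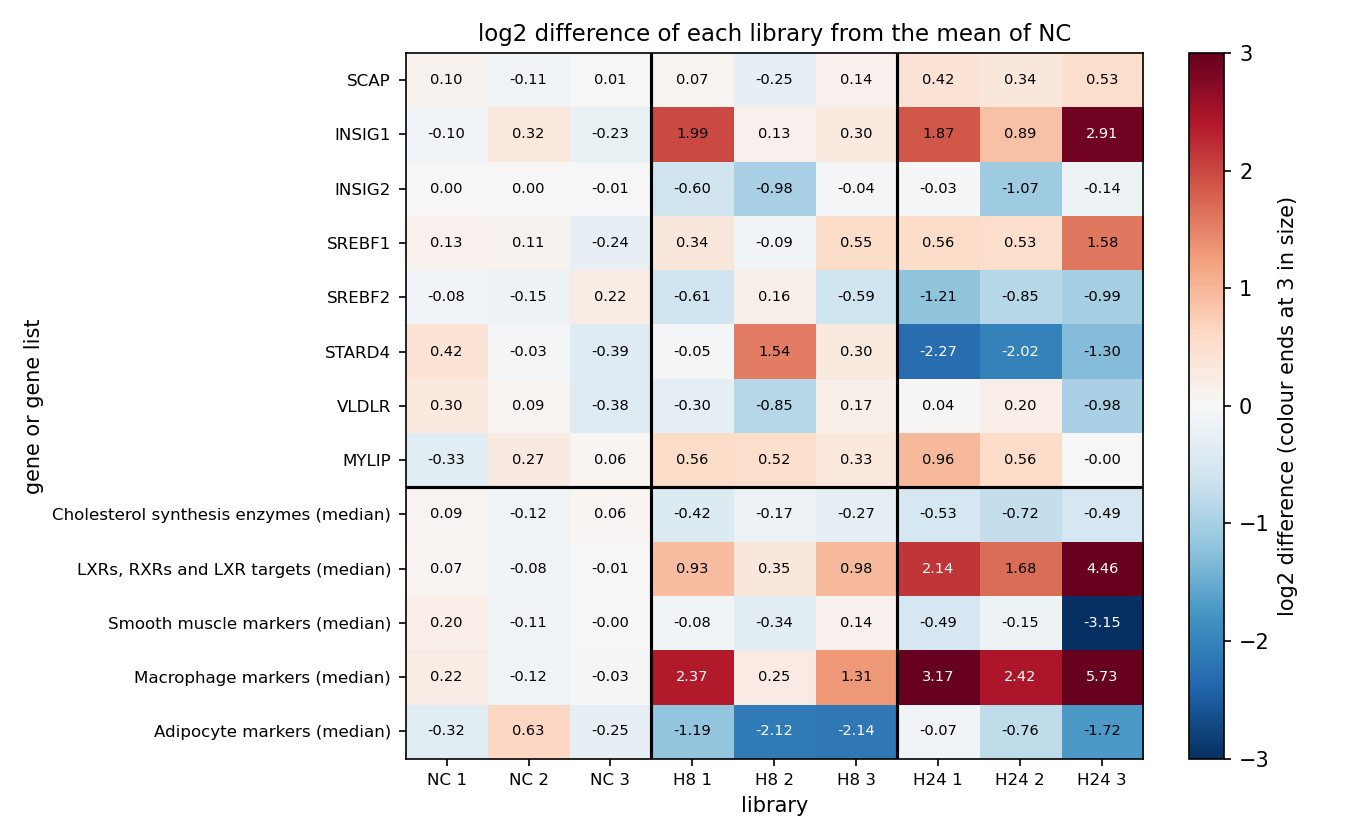
Log2 difference of each library (columns) from the mean of NC for the 8 genes and, below the line, for the medians of 5 gene lists, with the value printed in each cell and colour ending at a size of 3. INSIG1 and the macrophage markers are highest in H24 replicate 3, at 2.91 and 5.73, while SREBF2 is between -0.85 and -1.21 in all 3 H24 libraries.

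**Figure D5:**
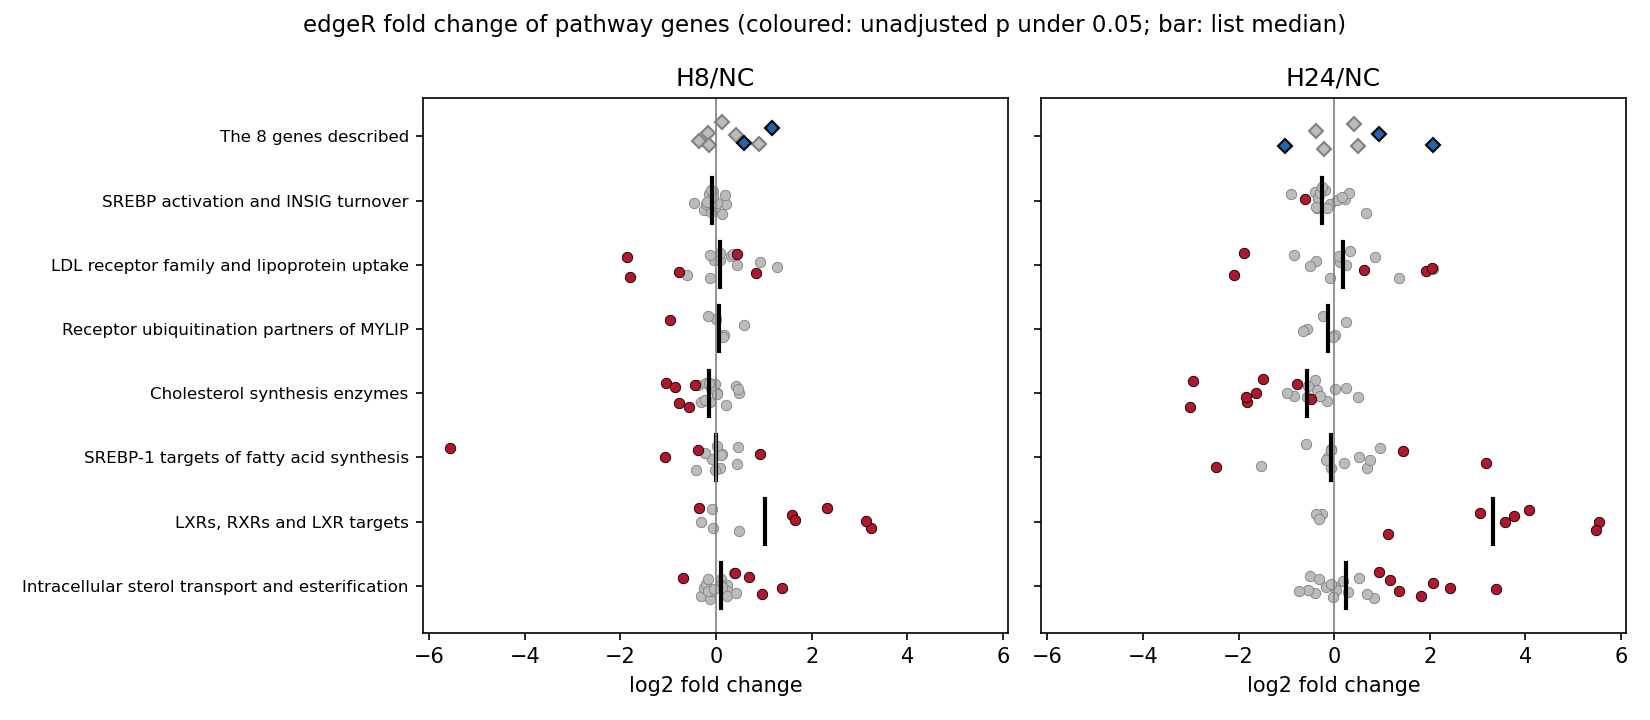
Log2 fold change from edgeR (horizontal axis) of each tested gene of 7 pathway lists, with the list's median as a bar, in H8 against NC and in H24 against NC. Diamonds are the genes described here, coloured points have an unadjusted p under 0.05, and in H24 against NC 16 of 19 enzymes of cholesterol synthesis lie left of 0 and 7 of 10 genes of the LXR list lie right of it.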

How the data were processed

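Poly(A) RNA from the lower abdominal aorta of minipigs, in 9 libraries with 3 per group, was sequenced in paired ends by the authors, who mapped reads with HISAT 2.0 to Sscrofa11.1 and quantified genes with StringTie 1.3.0. The processing notes also name Bowtie 0.12.2 and a mouse build without a role, and the extraction label speaks of adipose tissue. The deposited table holds FPKM values by the authors and an estimated count per gene and library. How these expected counts were derived, and the annotation release, are not given in the sources used here. For each of the 8 genes the ratio of CPM to FPKM varied by at most 1.03-fold between libraries.

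Groups followed the labels. Counts, which were whole numbers, were tested with edgeR 4.0.16 (quasi-likelihood, TMM scaling, 2-sided) over genes with a mean of at least 0.1 FPKM in the libraries fitted, with Benjamini-Hochberg adjustment over all genes tested and a threshold of 0.05. Pairwise comparisons fitted 6 libraries. DESeq2 1.42.0, limma 3.58.1 on log2(FPKM + 0.1, 1 or 0.01), other scalings, minimum levels and fits, and leaving out each library were alternatives. Ratios used exact permutation tests (SciPy 1.17.1). Statistical code was tested on simulated data. Single libraries were compared as log2 differences of FPKM from the NC mean.

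The 8 genes and all gene lists were chosen with earlier results of these data known. Genes named from each pathway list were those with an adjusted p under 0.05 in any pairwise comparison or, where there were none, the 3 with the smallest p in H24 against NC. Markers of cell types are given as sums, with a few single markers named beside them. Some genes that this rule names are not reported here. Genes with like patterns were the 3 nearest to each of the 3 members with the largest SD of log2(FPKM + 0.1). Of the 121 list genes, 115 were in the table. Promoter and protein sequences were not analysed here. The methods describe separate pigs for NC and H24, while for H8 the labels give replicate numbers only, so its spread may be technical. Floors of 3 counts cover counting error only.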

Additional observations from a re-analysis of the deposited data

How the results depend on the processing

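No gene of the 8 passed an adjusted p of 0.05 in edgeR under any scaling, filter, block or left-out library that was run. DESeq2 called 2 of them in H24 against NC, 1 in H24 against H8, 3 over the 3 groups and 1 with the diet at either time, where edgeR called 0, and over the whole table it called 1004, 815 and 714 genes in H24 against NC, H8 against NC and H24 against H8, 1639 over the 3 groups and 663 with the diet at either time, where edgeR called 0, 4, 2, 19 and 0. The cause of the difference between the tools was not tested. INSIG1 and SREBF2 in H24 against NC kept an unadjusted p under 0.05 in 17 of 17 alternatives, with log2 fold changes from 1.40 to 2.43 and from -1.14 to -0.90. Without H24 replicate 3, edgeR called 306 genes of the table in H24 against NC. STARD4 was below the minimum level there, and the fit of all 9 libraries gave -1.84, near the -1.85 without a minimum.

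Values near 0 changed sign. SCAP in H8 against NC became -0.0183 with library size only, and -0.0139, -0.0124 and -0.0141 with limma after adding 0.1, 1 and 0.01 FPKM. In H24 against H8, library size only gave 0.123 for VLDLR, 0.157 for INSIG2 and 0.105 for MYLIP, and a fit of all 9 libraries gave 0.0130 for INSIG2. With limma after adding 0.1, 1 and 0.01 FPKM the values were 0.0790, 0.0781 and 0.0791 for VLDLR, 0.1196, 0.0889 and 0.124 for INSIG2, and 0.0377, 0.0380 and 0.0377 for MYLIP. Library size only moved the median log2 fold change of all genes to 0.24 in H24 against H8 and -0.13 in H8 against NC.

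Leaving out each library in turn gave ranges that crossed 0 for 5 log2 fold changes. VLDLR in H24 against NC ran from -0.46 to 0.0772 and in H24 against H8 from -0.327 to 0.242. SREBF2 in H8 against NC ran from -0.537 to 0.0142. INSIG2 and MYLIP in H24 against H8 ran from -0.205 to 0.1996 and from -0.324 to 0.118. The log2 ratio of VLDLR to MYLIP in H24 against H8 ran from -0.249 to 0.361. The sign turned without H24 replicate 3 for VLDLR in both comparisons and for MYLIP, without H8 replicate 3 for SREBF2, for INSIG2 and for VLDLR in H24 against H8, without H24 replicate 2 for INSIG2, and without replicate 2 of either group for the ratio.

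Neither the labels nor the methods pair pigs by number, and the deviations of same-numbered libraries correlated at -0.0478 to 0.0824 over 9 pairs. With the replicate number as a block, no gene of the 8 passed adjustment either. The block left 1 gene higher and 1 lower at an unadjusted p under 0.05 in H24 against NC (INSIG1 1.87, SREBF2 -1.04), where SREBF1 was at 0.86 with an unadjusted p of 0.0691 in edgeR.

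DESeq2 counts for the pathway lists were added after the data had been seen. The promoter motif count could not be run. With 3 libraries per group, the exact tests of ratios cannot fall below 0.1, and counts of 8 to 142 limit STARD4.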

Other observations

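Other lists of the pathway were examined in the same edgeR fits, again without the 8 genes and with counts at an unadjusted p under 0.05. None of their genes passed adjustment in edgeR. The shares of all genes called, given with the lists above, apply to these counts too. Of 22 tested genes of intracellular sterol transport and esterification, 7 were higher and none lower in H24 than in NC, with a median log2 fold change of 0.24. LIPA, the lysosomal acid lipase that frees cholesterol from taken-up lipoproteins, had 3.39 ± 0.76 (SE), SOAT1, which esterifies cholesterol, had 2.42 ± 0.75, and GRAMD1B, a carrier of sterol from the plasma membrane, had 2.07 ± 0.56. Their adjusted p-values in edgeR were 0.135, 0.236 and 0.176. SOAT1 had 6.55, 2.29 and 20.9 FPKM in H24 replicates 1, 2 and 3, against 1.40 to 2.27 in NC. GRAMD1B was low, with 0.0341 to 0.0896 FPKM in NC and 0.206 to 0.326 in H24, and was under the minimum level in H8 against NC. In H24 against NC it reached the minimum level through H24 only. Set against NC, H8 had 4 of 21 higher and 1 lower, with a median of 0.10, and in H24 against H8 4 of 22 were higher and none lower, with a median of 0.30. DESeq2 called 3, 1 and 1 of these genes after adjustment in H24 against NC, H8 against NC and H24 against H8, all higher. Among these genes of sterol handling, STARD4 had -1.85 in H24 against NC in the fit without a minimum level.

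Of 15 tested fatty acid synthesis genes that SREBF1 products control, 2 were higher and 1 lower in H24 than in NC, with a median of -0.06. SCD, the stearoyl-CoA desaturase, had 3.17 ± 0.92 (SE) and MID1IP1, an activator of acetyl-CoA carboxylase, had 1.43 ± 0.44, while FADS1, a desaturase of polyunsaturated fatty acids, had -2.46 ± 0.54. Their adjusted p-values in edgeR were 0.207, 0.234 and 0.132. SCD had 36.2, 13.4 and 185 FPKM in H24 replicates 1, 2 and 3, against 6.57 to 9.89 in NC. H8 against NC had 1 of 14 higher and 3 lower, with a median of 0.00, and in H24 against H8 2 of 15 were higher and 1 lower, with a median of 0.41. DESeq2 called SCD and MID1IP1 as higher and FADS1 as lower in H24 against NC, 2 genes as lower in H8 against NC and 1 as higher in H24 against H8. Of the 2 lower genes, 1 was under 0.1 FPKM in each H8 library and reached the minimum level through NC only. The gene higher in H24 against H8 had 0 FPKM in each H8 library and reached that level through H24 only. The macrophage sums given above were highest in H24, and their part in these values was not tested.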
